A study of Mus musculus with 9 samples.

Results

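The hair follicle stem cell genes examined here were *Lgr5*, *Lgr6*, *Lrig1*, *Cd34*, *Cd200*, *Sox9*, *Lhx2*, *Nfatc1*, *Foxc1* and *Tbx1*, 10 of the 17943 genes in the bulk RNA-seq table of control and *Supt6*-KO mouse skin. They were taken by name, with earlier results of these data known, as genes long used to mark or maintain follicle stem cells. All 10 had counts in all 9 mice. SPT6, the product of *Supt6*, is a histone chaperone and transcription elongation factor. The study deleted *Supt6* in the keratin 14-expressing cells of the skin and asked how the tissue changed.

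The 4 *Supt6*-KO mice carried K14-CreERT and floxed *Supt6* alleles (K14-CreERT; *Supt6* fl/fl) and received tamoxifen during the first telogen, the resting phase of the hair cycle. The 5 controls were floxed mice without Cre that received corn oil, and the sample labels give them as wild type. Cre, tamoxifen and the deletion therefore differed together between the groups and cannot be told apart. The *K14* promoter acts in basal keratinocytes, including those of the follicle, so the other cells of a whole-skin sample were not targeted. Skin was collected on day 10 after the last injection, and the age in days was not given in the sources used here. The labels name the ear as the tissue, whereas the study's methods name dorsal skin. Cartilage, which the ear pinna holds and dorsal skin does not, was represented in every control: *Acan*, the large cartilage proteoglycan, had 3048 to 11562 counts and *Col2a1*, the cartilage collagen, had 1474 to 5067. In *Supt6*-KO mice they had 233 to 356 and 101 to 140 counts, so the groups differed in cartilage transcripts, and whether they held the same share of each tissue cannot be told apart from changes within it. The totals per mouse ran from 29627341 to 30967107 counts.

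Hair follicle stem cells rest in the bulge and hair germ of the telogen follicle and are activated by Wnt signals to rebuild the lower follicle in each cycle. Separate pools in the isthmus and junctional zone supply the upper follicle and sebaceous gland. Surface proteins such as CD34 and the R-spondin receptors LGR5 and LGR6 mark these pools, and transcription factors such as SOX9, LHX2 and NFATC1 maintain their identity or their rest. Most of these genes are also used outside the follicle, for example *Cd34* in vessels and fibroblasts and *Sox9* in cartilage.

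*Supt6* itself, the targeted gene, was read first. Its level in CPM (counts scaled to library size, with TMM factors between mice) was 74.5, 56.6, 63.6, 91.1 and 96.7 in controls 1 to 5 and 28.6, 24.1, 21.9 and 28.4 in *Supt6*-KO mice 1 to 4. Every *Supt6*-KO mouse lay below every control (log2 fold change -1.57 ± 0.18 SE, edgeR adjusted p = 8.7e-06). The remaining transcript was 33.7% of the control level, in tissue that holds untargeted cells. The study's deletion removes only some exons of the gene, so transcript of recombined alleles may be counted too. These sources cannot be told apart here. With a correction for gene length the log2 fold change was -0.78 (edgeR adjusted p = 0.00015), which is short of 2-fold.

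All 10 follicle stem cell genes had lower mean levels in *Supt6*-KO skin, and 6 of them, *Lgr5*, *Lgr6*, *Sox9*, *Lhx2*, *Nfatc1* and *Foxc1*, were called lower, meaning at least 2-fold with an edgeR adjusted p under 0.05. None was called higher. Among the 16426 genes tested, 24.8% were called lower and 20.8% higher, so large changes were common in this comparison. Without the fold limit, 10 of 10 passed in the lower direction and 0 in the higher, against 36.8% and 34.1% of all genes. *Cd34* (0.046) and *Cd200* (0.047) passed narrowly: with the replicate block their adjusted p was 0.077 and 0.056, it was also above 0.05 with DESeq2 and in most fits that left out 1 mouse, and *Lrig1* did not pass with a gene-length correction (0.77). For 9 of the 10, every *Supt6*-KO mouse lay below every control, as for 31.8% of all genes, and for none did every *Supt6*-KO mouse lie above, as for 28.9%. The median log2 fold change of the 10 genes was -1.37, with a range of -2.18 to -0.35, and that of all genes tested was -0.072. In bulk skin, fewer cells of a type and less RNA per cell cannot be told apart.

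**Figure D1:**
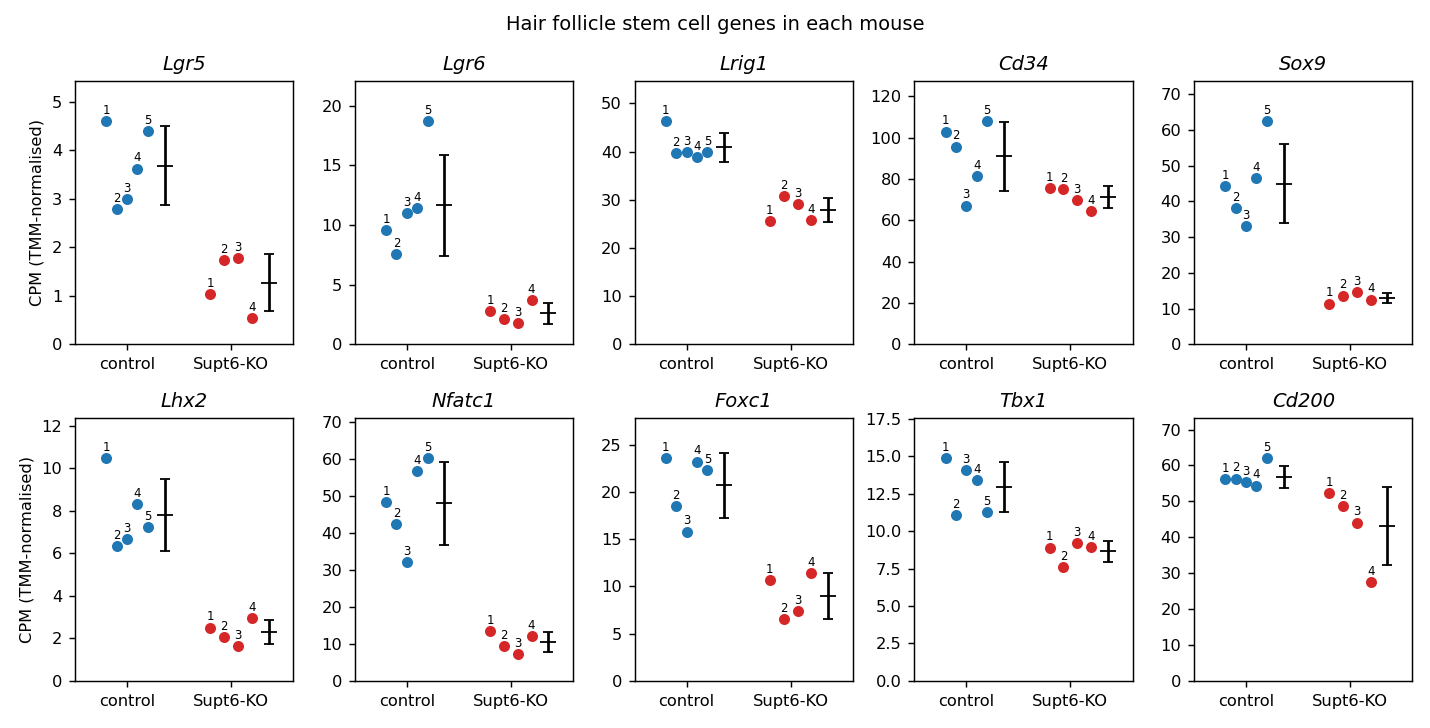
Level of each follicle stem cell gene in CPM (vertical axes, from 0) in the 5 controls (blue) and 4 *Supt6*-KO mice (red), each point a mouse with its replicate number, and bars giving mean ± SD. The groups overlap for *Cd34* and are separate for the other 9 genes.

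*Lgr6*, an R-spondin receptor of the isthmus and the interfollicular epidermis, was called lower. It measured 9.57, 7.56, 11, 11.4 and 18.7 CPM in controls 1 to 5 and 2.76, 2.11, 1.74 and 3.7 CPM in *Supt6*-KO mice 1 to 4. Control 5 was the highest and the groups did not overlap. *Supt6*-KO skin held 22.2% of the control level (log2 fold change -2.17 ± 0.30 SE, 95% interval -2.81 to -1.52, edgeR adjusted p = 4.1e-05).

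*Lgr5*, the R-spondin receptor of the lower bulge and hair germ, was the scarcest of the 10. It measured 4.6, 2.79, 2.99, 3.62 and 4.4 CPM in controls 1 to 5 and 1.04, 1.73, 1.78 and 0.539 CPM in *Supt6*-KO mice 1 to 4. The lowest of these, *Supt6*-KO 4, rested on 15 counts and the lowest control on 102. The log2 fold change was -1.54 ± 0.33 SE (95% interval -2.26 to -0.83, edgeR adjusted p = 0.0011), the widest interval of the 10. *Supt6*-KO 4 was the lowest mouse for *Lgr5* and the highest of its group for *Lgr6*.

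*Lrig1*, which encodes a restraint on EGF receptor signalling and marks junctional zone cells, fell less. It measured 46.3, 39.6, 39.8, 38.8 and 39.9 CPM in controls 1 to 5 and 25.6, 30.8, 29.1 and 25.8 CPM in *Supt6*-KO mice 1 to 4. The groups were separate, with 68% of the control level left (log2 fold change -0.56 ± 0.11 SE, edgeR adjusted p = 0.00083), so the fold limit was not met.

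*Cd34*, the sialomucin used to sort mouse bulge cells, and *Cd200*, an immunoregulatory surface protein of the bulge and germ, had the smallest differences with TMM scaling. *Cd34* measured 103, 95.7, 67.1, 81.5 and 108 CPM in controls 1 to 5 and 75.5, 75, 69.8 and 64.4 CPM in *Supt6*-KO mice 1 to 4. Control 3 lay below 3 of the *Supt6*-KO mice. The log2 fold change was -0.35 ± 0.15 SE (edgeR adjusted p = 0.046), and the exact permutation test over all splits of the mice gave a two-sided p = 0.0794. *Cd200* measured 56.2, 56.3, 55.3, 54.4 and 62.1 CPM in controls 1 to 5 and 52.2, 48.7, 44.1 and 27.5 CPM in *Supt6*-KO mice 1 to 4. *Supt6*-KO 4 stood well below its group, and the log2 fold change of -0.40 ± 0.17 SE (edgeR adjusted p = 0.047) was -0.24 without it. With DESeq2 the adjusted p was 0.092 for *Cd34* and 0.089 for *Cd200*.

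Apart from *Cd34*, each of the 10 genes had a two-sided exact permutation p = 0.0159, the smallest these 9 mice allow.

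Of the transcription factors, *Nfatc1*, which holds bulge cells in quiescence, had a decrease about as large as that of *Lgr6*, and the ratio of the 2 genes did not separate the groups (exact permutation p = 0.841). It measured 48.5, 42.5, 32.2, 56.8 and 60.4 CPM in controls 1 to 5 and 13.4, 9.36, 7.27 and 12.2 CPM in *Supt6*-KO mice 1 to 4. The highest *Supt6*-KO mouse was far below the lowest control, and 22% of the control level was left (log2 fold change -2.18 ± 0.23 SE, edgeR adjusted p = 4.8e-06).

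*Sox9*, needed to specify and keep the bulge, measured 44.3, 38.2, 33.2, 46.6 and 62.5 CPM in controls 1 to 5 and 11.4, 13.6, 14.5 and 12.5 CPM in *Supt6*-KO mice 1 to 4. The *Supt6*-KO mice lay close together and 29% of the control level was left (log2 fold change -1.79 ± 0.18 SE, edgeR adjusted p = 4.3e-06). *Sox9* is also the main transcription factor of chondrocytes, and the cartilage list moved with it. All 9 tested cartilage genes of 10 were called lower, *Matn1* was too low to test, and no gene of the list was at 0 in all mice. The summed cartilage level was 565, 463, 445, 658 and 962 CPM in controls 1 to 5 and 83.1, 102, 94.1 and 87.1 CPM in *Supt6*-KO mice 1 to 4, with *Acan* the most abundant gene. Control 5 was highest for both *Sox9* and cartilage, control 3 was lowest for both, and the part of cartilage in the *Sox9* result was not tested.

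*Lhx2*, a LIM-homeobox factor of the bulge and germ, measured 10.5, 6.35, 6.67, 8.33 and 7.23 CPM in controls 1 to 5 and 2.51, 2.06, 1.65 and 2.95 CPM in *Supt6*-KO mice 1 to 4. The groups were well apart, with 29.3% of the control level left (log2 fold change -1.77 ± 0.22 SE, edgeR adjusted p = 2.3e-05). *Foxc1*, a forkhead factor that helps keep activated bulge cells quiescent, measured 23.6, 18.5, 15.8, 23.2 and 22.3 CPM in controls and 10.7, 6.52, 7.36 and 11.4 CPM in *Supt6*-KO mice. It kept 43.4% of the control level (log2 fold change -1.20 ± 0.20 SE, edgeR adjusted p = 0.00018), and with the gene-length correction it was at -0.53 and no longer called.

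*Tbx1*, a T-box factor linked to bulge cell self-renewal, measured 14.9, 11.1, 14.1, 13.4 and 11.3 CPM in controls 1 to 5 and 8.9, 7.58, 9.19 and 8.94 CPM in *Supt6*-KO mice 1 to 4. The groups were separate but near each other, and the fold limit was not met (log2 fold change -0.58 ± 0.14 SE, edgeR adjusted p = 0.0034).

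**Figure D2:**
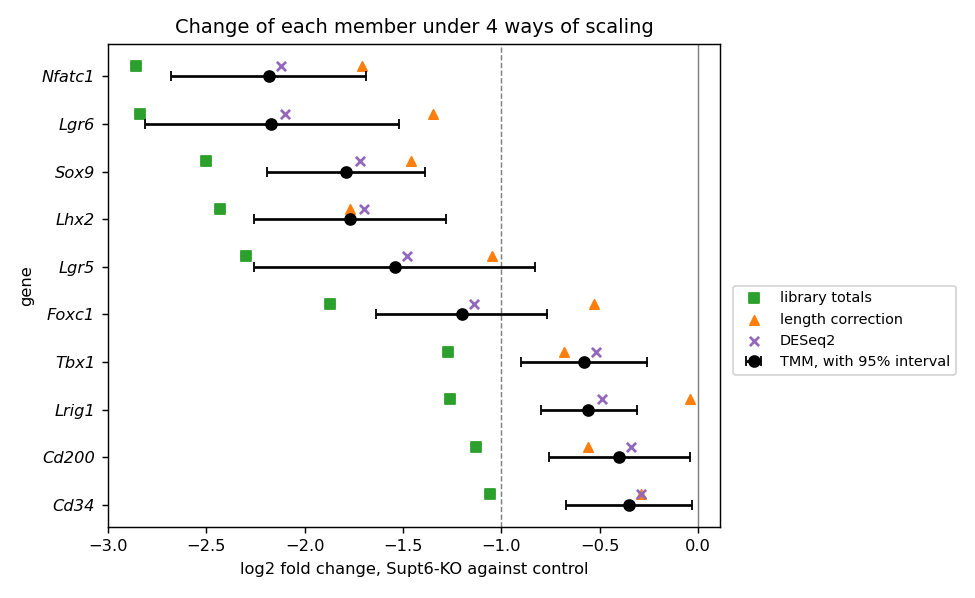
Log2 fold change of each gene, *Supt6*-KO against control (horizontal axis), with TMM scaling (black, 95% interval), library totals alone (green), a gene-length correction (orange) and DESeq2 (purple). All points lie below 0, from -2.86 for *Nfatc1* with library totals to -0.04 for *Lrig1* with the length correction, and the dashed line marks a 2-fold decrease.

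The sizes depended on scale and on gene length, although the sign stayed negative under every alternative tried. With library totals alone, the median of all genes moved from -0.072 to -0.759, all 10 follicle stem cell genes were called lower, and 6798 genes were called lower and 1470 higher, against 4079 and 3419 with TMM. Long genes were lower as a class: the median log2 fold change with genes split by length into 4 bins was 0.71 in the shortest bin and -0.76 in the longest, and *Lgr5*, *Lgr6*, *Lrig1*, *Nfatc1* and *Foxc1* belonged to the longest. Lengths were those of the longest GENCODE transcript, 5844 bases for *Foxc1*, whose RefSeq locus spans 3990 bases and would fall in the third bin, so its value after correction rests on that choice. After a correction for this trend *Lrig1* was at -0.04 (edgeR adjusted p = 0.77), *Foxc1* was at -0.53 (0.014) and no longer called, and the other called genes passed at smaller or equal values. *Lgr6* moved from -2.17 to -1.35 and *Lgr5* from -1.54 to -1.05, close to the fold limit. *Sox9* was then at -1.46, *Nfatc1* at -1.71 and *Lhx2*, in the second of these bins, at -1.77.

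Ratios between 2 genes of the same mouse do not depend on its scaling factor. All 45 pairs were compared, with exact permutation p-values adjusted over the pairs, and 22 pairs had groups that did not overlap (p = 0.0159, adjusted p = 0.0325). The log2 ratio of *Nfatc1* to *Cd34* was 1.85 lower in *Supt6*-KO mice, and that of *Sox9* to *Lrig1* was 1.20 lower. Of the 24 pairs of a called with an uncalled gene, 19 were apart. Of the 15 pairs of called genes 3 were apart, each with *Foxc1*, which fell less than *Lgr6*, *Lhx2* and *Nfatc1*. None of the 6 pairs among *Lrig1*, *Cd34*, *Tbx1* and *Cd200* was apart. The ratios use the same counts as the fold changes and are not independent support.

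**Figure D3:**
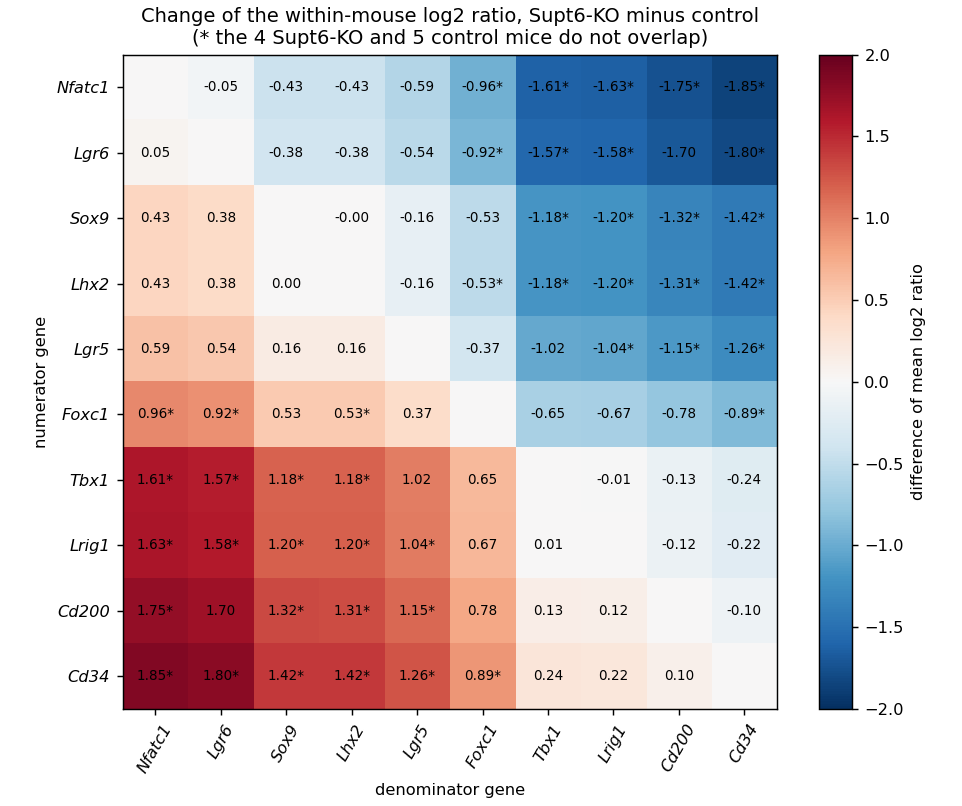
Change of the log2 ratio of each row gene to each column gene, *Supt6*-KO minus control, from blue (numerator fell more) to red, with an asterisk where the 4 *Supt6*-KO mice and 5 controls do not overlap. The 22 marked pairs lie mainly between *Nfatc1*, *Lgr6*, *Sox9*, *Lhx2* and *Lgr5* on the one side and *Tbx1*, *Lrig1*, *Cd200* and *Cd34* on the other.

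Levels can be compared between genes only per length, with the authors' TPM, a measure scaled for transcript length and depth. In the 5 controls the mean level was 67.2 TPM for *Cd34*, 45.8 for *Cd200*, 19.1 for *Sox9*, 18.4 for *Nfatc1*, 14 for *Lrig1* and 13.3 for *Tbx1*. It was 9.05 TPM for *Foxc1*, 6.37 for *Lhx2*, 5.78 for *Lgr6* and 1.35 for *Lgr5*. Only *Cd200* against *Sox9* and *Lgr6* against *Lgr5* were neighbours in this order with ranges that did not overlap. Compared within each mouse, *Cd34* was above *Cd200*, *Tbx1* above *Foxc1* and *Foxc1* above *Lhx2* in all 5 controls. The order of the other overlapping neighbours held in 3 or 4 of the 5. The most abundant genes of the 10, *Cd34* and *Cd200*, had the smallest fold changes with TMM, but not with the length correction, where *Lrig1* (-0.04) and *Cd34* (-0.29) were smallest and *Cd200* was at -0.56.

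Some mice stood apart from their group. The first principal component held 77.1% of the variance and separated the groups, while control 5 and *Supt6*-KO 4 lay away from the rest on the second. Control 1 and control 5 were each the highest control for 5 of the 10 genes, and controls 2 and 3 were below the control mean for 9. Without any single mouse in turn, 6 of the 10 genes were still called lower.

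Promoters of the members were read from RefSeq (GRCm38.p6), which gave 9 windows of 250 bases before to 50 after the start for 7 of the genes, *Lgr6*, *Cd34*, *Lhx2*, *Lrig1*, *Foxc1*, *Tbx1* and *Cd200*. The 250 bases before the start are shown for *Lhx2* (chr2:38339031-38339280, plus strand), a gene called lower, and *Cd34* (chr1:194938571-194938820, plus strand), one that was not, because they differ plainly in CG dinucleotides, set in capitals. The *Lhx2* start used lies inside the RefSeq locus given below (chr2:38339271-38369737), so the last bases printed for *Lhx2* belong to that locus.
*Lhx2*: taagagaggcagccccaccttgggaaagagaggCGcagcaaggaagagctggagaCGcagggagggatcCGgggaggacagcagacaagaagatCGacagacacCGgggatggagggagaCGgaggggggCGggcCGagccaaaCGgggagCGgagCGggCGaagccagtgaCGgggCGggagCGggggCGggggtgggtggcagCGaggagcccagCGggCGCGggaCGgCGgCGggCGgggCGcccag
*Cd34*: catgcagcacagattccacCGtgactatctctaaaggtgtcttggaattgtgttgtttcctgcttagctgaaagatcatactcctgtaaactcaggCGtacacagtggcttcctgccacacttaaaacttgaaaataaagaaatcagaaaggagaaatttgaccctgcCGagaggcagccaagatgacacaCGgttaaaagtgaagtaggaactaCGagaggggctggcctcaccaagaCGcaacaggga
The *Lhx2* stretch holds 25 CG dinucleotides and the *Cd34* stretch 6. Over whole windows the number was 34 and 29 for *Lhx2*, 35 for *Lrig1*, 32 for *Foxc1*, 26 and 16 for *Tbx1*, 24 for *Lgr6*, 8 for *Cd200* and 7 for *Cd34*, with a median of 7 over all 32851 windows. *Lrig1*, which was not called lower, had the most, while *Cd34* and *Cd200*, with the fewest, had the smallest changes with TMM. No relation between CG number and change was tested. The *Tbx1* window with 26 begins at a RefSeq start for which no GENCODE transcript was found, so its counts may not describe a *Tbx1* promoter.

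The windows were also searched on both strands for TATAAA (the core promoter box of that name), CTTTGA (TCF/LEF core), ACAAAG (SOX core), TAATTA (LIM-homeobox core) and TGGAAA (NFAT core). None of the 9 member windows held any of the 5, against 13.6%, 16%, 18.7%, 5.29% and 21.4% of all windows respectively. These letters are rich in A and T and most member windows are rich in G and C: of all windows with a GC content within 1 percentage point of a member's, the share with none of the 5 motifs ran from 31.1% for *Cd200* to 83.7% for the first *Lhx2* window. The search says only that these letters are not in these windows.

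Other follicle stem cell genes, a list of 16, were mostly lower. This list and those below were chosen with earlier results of these data known, so they are not independent support for the members. Of these 10 were called lower, 2 higher and 4 neither, with a median log2 fold change of -1.44, against 24.8% of all genes called lower and 20.8% higher (median -0.072). *Krt15*, a keratin of bulge cells, went from 2303 ± 271 to 367 ± 106 CPM (SD, n = 5 and 4), and *Grem1*, a BMP antagonist, from 1.64 ± 0.414 to 0.223 ± 0.112 CPM. The 2 called higher were *Sostdc1*, a secreted BMP and Wnt inhibitor (log2 fold change 2.47 ± 0.23 SE, edgeR adjusted p = 2.4e-06), and *Plet1*, an upper follicle surface protein (1.34 ± 0.47, 0.027), whose groups overlapped.

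Of 16 other follicle transcription factors, 12 were called lower and 0 higher, with a median log2 fold change of -1.46, beside the same 24.8% and 20.8% of all genes. *Nfix*, a nuclear factor I member that works with NFIB in the bulge, fell by 3.84 ± 0.33 SE on the log2 scale (edgeR adjusted p = 1.8e-06), and *Lef1*, a Wnt effector, fell by 3.51 ± 0.45 SE (2.2e-05). *Runx1* was at -0.02 ± 0.19 SE (0.94) and was not called.

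The R-spondin axis, through which LGR receptors raise Wnt signalling, had 5 of 7 genes called lower and 0 higher, with a median log2 fold change of -1.19, where 24.8% of all genes were lower and 20.8% higher. *Znrf3*, a ligase that removes Wnt receptors, went from 19.6 ± 2.78 to 6 ± 0.98 CPM (log2 fold change -1.71 ± 0.17 SE, edgeR adjusted p = 3.2e-06). The ligand *Rspo2* was scarce, with 7 to 21 counts in controls and 1 to 4 in *Supt6*-KO mice. The third receptor, *Lgr4*, was at -0.35 ± 0.12 SE (0.018), a smaller difference than those of *Lgr5* and *Lgr6*, and that contrast between receptors was not tested.

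**Figure D4:**
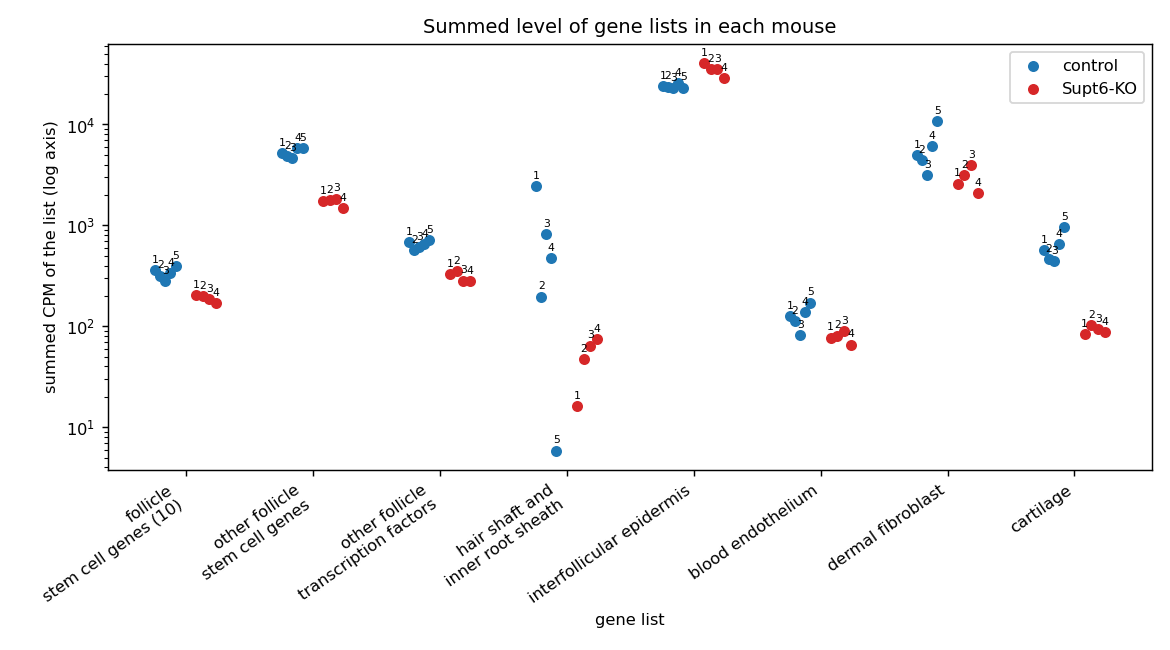
Summed CPM of 8 gene lists (vertical log axis) in each control (blue) and *Supt6*-KO mouse (red), each point a mouse with its replicate number. The sum of the 10 follicle stem cell genes runs from 278 to 396 in controls and from 170 to 204 in *Supt6*-KO mice, while the hair shaft sum spreads from 5.86 to 2453 among controls.

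Marker lists of other cell types in the skin differed between the groups to varying degrees, to be read against the 24.8% of all genes called lower and 20.8% called higher, and their part in the results on the follicle stem cell genes was not tested. The sums of the blood endothelium, lymphatic, fibroblast, hair shaft and proliferation lists overlapped between the groups. Hair shaft and inner root sheath genes summed to 2453, 197, 818, 470 and 5.86 CPM in controls 1 to 5 and 16.2, 47.7, 64.2 and 74.7 CPM in *Supt6*-KO mice 1 to 4, so control 5 was the lowest of all. In this list 13 of 14 genes were called lower but 6 had groups that did not overlap, and *Krt25*, an inner root sheath keratin, had 11 to 12511 counts in controls and 0 to 3 in *Supt6*-KO mice. Control 5, with the fewest hair shaft transcripts, was the highest control for 5 of the 10 follicle stem cell genes and below the control mean for 3.

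*Cd34* is also a vessel gene, as *Foxc1* and *Nfatc1* can be. The blood endothelium list summed to 127, 113, 81.1, 137 and 172 CPM in controls 1 to 5 and 77.4, 80.7, 89.4 and 65.7 CPM in *Supt6*-KO mice 1 to 4, with 5 of 10 genes called lower, 0 higher and a median log2 fold change of -0.91. *Pecam1*, its most abundant gene, went from 39.1 ± 9.76 to 18.5 ± 1.55 CPM (-1.08 ± 0.18 SE, edgeR adjusted p = 0.00023), and control 3 was lowest for both this sum and *Cd34*. By the adjusted p alone, 8 blood endothelium genes were lower and 1 higher, and for 1 gene every *Supt6*-KO mouse lay above every control. Of 6 lymphatic genes 3 were called lower and 0 higher, including *Prox1* (-2.08 ± 0.35 SE, 0.0002), although 1 gene was higher by the adjusted p alone and the sums overlapped, at 68.2 to 138 CPM in controls and 74.9 to 95.1 CPM in *Supt6*-KO mice. The fibroblast list, 3 of 9 called lower and 0 higher, summed to 4937, 4452, 3124, 6127 and 10810 CPM in controls and 2598, 3134, 3968 and 2093 CPM in *Supt6*-KO mice, again with control 3 lowest and control 5 highest among controls. No gene of these 3 lists was at 0 in all mice.

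The interfollicular epidermis list had a median log2 fold change of -0.62 but a higher sum, from 23035 to 25520 CPM in controls against 28686 to 40371 CPM in *Supt6*-KO mice, of which *Krt10* alone made up 52.9%. *Krt1*, a keratin of differentiating cells, rose by 3.65 ± 0.25 SE on the log2 scale (edgeR adjusted p = 3.1e-07), while *Krt5*, the basal keratin, was at -0.86 ± 0.23 SE (0.0048) and not called. Of 8 genes in this list 3 were called lower and 1 higher. Those called lower included *Itgb4* (-2.69 ± 0.27 SE, edgeR adjusted p = 4.3e-06) and *Itga3* (-1.62 ± 0.45 SE, 0.0092). Sebaceous gland genes had 6 of 8 called lower and 0 higher (median -1.66, *Scd1* -2.76), dermal papilla genes 7 of 14 and 0 (median -1.22, *Corin* -3.28), and skeletal muscle genes 7 of 8 and 0 (median -2.67, *Acta1* -2.66). Neutrophil genes had 7 of 9 called higher and 1 lower, with a sum of 14.2 to 42.9 CPM in controls and 2513 to 6400 CPM in *Supt6*-KO mice. That sum was mostly *S100a9* (58.2%) and *S100a8*, which inflamed keratinocytes also express, while *Ly6g*, a neutrophil surface marker, had 0 to 1 counts in controls and 0 to 15 in *Supt6*-KO mice. T and B lymphocyte genes had 2 of 6 tested genes called lower and 2 higher (median 0.40), but their sum was lower, 21.9 to 28.8 CPM in controls and 4.35 to 8.82 CPM in *Supt6*-KO mice, with the T cell receptor genes *Cd3e* at -4.13 and *Cd3g* at -2.65 on the log2 scale. Proliferation genes had 5 of 8 called higher and 0 lower, and their sum was highest in *Supt6*-KO 4, at 766 CPM against 160 to 285 CPM in the other *Supt6*-KO mice and 87.3 to 166 CPM in controls, so the groups overlapped.

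The genes most like each member over the 9 mice were taken as those with the smallest root mean square difference in log2 CPM from the control mean, among 13563 genes. The nearest to *Lrig1* was *Ncoa7* (0.074), to *Foxc1* *Zfp335* (0.080), to *Sox9* *Plpp3* (0.091), to *Cd200* *Ank* (0.093) and to *Cd34* *Nt5e* (0.113). The nearest to *Nfatc1* was *Chst12* (0.120), to *Tbx1* *Pkn3* (0.123), to *Lhx2* *Nipal3* (0.149), to *Lgr6* *Erg* (0.171) and to *Lgr5* *Sox17* (0.247). None of the 10 genes was the nearest to another of the 10.

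On GRCm38, by RefSeq, *Lgr5* lies at chr10:115450314-115587780, *Lgr6* at chr1:134983300-135105374, *Lrig1* at chr6:94604529-94700298, *Cd34* at chr1:194938821-194961292 and *Cd200* at chr16:45382111-45409060. *Sox9* lies at chr11:112782210-112787757, *Lhx2* at chr2:38339271-38369737, *Nfatc1* at chr18:80606205-80713071, *Foxc1* at chr13:31806646-31810635 and *Tbx1* at chr16:18580979-18590671. Gene models on the opposite strand overlap *Lgr5*, *Lrig1*, *Cd34*, *Lhx2* and *Nfatc1*, and whether counting used strand was not given in the sources used here, so reads of these 5 genes and their overlapping partners may not be separable.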

How the data were processed

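Skin RNA of 5 control and 4 *Supt6*-KO mice was sequenced. Per the labels and the study's methods, the authors aligned reads to mm10 with Bowtie2 2.3.4.3 and quantified genes with RSEM 1.3.1. HISAT and DESeq2 1.4.5 are also listed in the submitters' processing notes. The deposited table holds the authors' RSEM estimated counts (8.39 to 9.55% of values per mouse were not whole) and TPM, used here for 6 mice, the controls and *Supt6*-KO 4. Estimated counts were rounded. Genes with a sum of at least 10 counts were tested with edgeR 4.0.16 (quasi-likelihood, robust, TMM factors, R 4.3.3), and p-values were adjusted by Benjamini-Hochberg across the 16426 genes. CPM and log2 CPM used TMM factors, the latter with a prior count of 2. Single genes were also tested with two-sided exact permutation over all splits of the mice. The labels do not say more of how replicates relate than that they are separate samples, so p-values measure the spread between these samples.

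The members and gene lists were chosen with earlier results of these data known. Named genes were all members, *Supt6* and, from the lists, some of the genes that a rule picked. The rule took the first-listed cell type gene of each list. It also took up to 2 genes per direction with the largest change at a mean of at least 1 CPM. Not all of the genes it picked are printed. The most abundant gene of a list, such as *Krt10*, could also be named. *Lgr4*, *Runx1* and *Rspo2* were added for their role or after their values were seen. The within-mouse ratios were added after the values were seen. Lists were described by counts and medians, without a set test. Of 17943 gene identifiers, 17917 matched RefSeq and 17866 had a GENCODE length, used in the length correction (a smooth trend of log CPM on length in each mouse). In data simulated over 16423 genes, edgeR recovered 100% of 200 genes changed by 2 on the log2 scale. The changed genes were drawn above a count floor, equally up and down, with a single fixed dispersion. Far more genes changed in the real comparison, and scaling differed more between the groups. The simulation therefore checks the recovery of large changes in simple data, not the calls reported here. Other normalizations, filters, DESeq2 1.42.0, the replicate block and leaving out each mouse were tried as alternatives.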

Additional observations from a re-analysis of the deposited data

Results flagged for a closer look

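Among 52 groups of values examined, 2 held a mouse far from the others of its group, and chance flags about 1 in 20 groups, or 2.6 here. For *Lrig1*, control 1 measured 46.3 CPM while the other controls lay between 38.8 and 39.9 CPM. For *Cd200*, control 5 measured 62.1 CPM while the other controls lay between 54.4 and 56.3 CPM. Both mice lie on the far side of their group from the *Supt6*-KO mice. Without control 1 or control 5, 6 of the 10 genes were called lower, as with all mice.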

How the results depend on the processing

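The log2 fold change of all 10 genes was negative under all 17 alternatives, and none was called higher, but *Lrig1* was at -0.04 with the length correction (adjusted p 0.77). The number called lower, 6, was 10 with library totals, which add *Lrig1* (-1.26), *Cd34* (-1.06), *Tbx1* (-1.27) and *Cd200* (-1.13), and 10 with the adjusted p alone. It was 5 with the length correction, where *Foxc1* (-0.53) was lost, and 6 elsewhere. Genes called lower numbered 6798 and higher 1470 with library totals, and 3332 and 3198 with the length correction. With the adjusted p alone, 5598 were higher. *Supt6* was at -0.78 with the length correction, past the adjusted p but not 2-fold. Leaving out 1 mouse moved *Lgr5* between -1.76 and -1.28, *Cd34* between -0.44 and -0.28 and *Cd200* between -0.50 and -0.24. The adjusted p of *Cd34* reached 0.11 and that of *Cd200* 0.091.

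With the replicate block, 6 members were called lower, with 3837 genes lower and 3137 higher. Same-numbered mice had correlations of -0.009, 0.159, 0.142 and 0.026, and those of differently numbered mice ran from -0.178 to 0.178. So few pairs cannot show whether mice with the same number share more than the number. Depth limits *Lgr5* most, with 15 to 39 counts in *Supt6*-KO mice.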
